A study of Homo sapiens with 9 samples.

Results

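The subject is the zinc finger genes of human chromosome 19, taken as every protein-coding gene on that chromosome in GENCODE release 29 (build GRCh38) whose symbol is ZNF followed by a number. The rule found 249 genes among the 58233 gene identifiers of the count tables, and no measured value entered the choice. The cells were UPCI-SCC-040, an established line from an oral squamous cell carcinoma of the tongue. One group of 3 libraries had received TGF-β1 at 5 ng/ml for 48 h, a second group of 3 the same dose for 72 h, and another group of 3 was the untreated control. TGF-β1 is a secreted cytokine that acts through SMAD transcription factors and drives epithelial cells towards a mesenchymal state. In every group, replicate 1 was passage 12 of the line, replicate 2 passage 13 and replicate 3 passage 8, with no genetic change described. Treated cells were kept in medium lacking serum and antibiotics. The labels do not say that the controls were, so treatment, serum withdrawal and time in culture cannot be told apart. The labels name no separate cultures beyond the passages, so every p-value covers no more than the spread among these libraries.

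Genes of this kind encode proteins with an array of classical zinc fingers, each finger a short fold around a zinc ion that reads a few bases of DNA. Most of them also carry a KRAB domain at the amino end, which binds the co-repressor TRIM28, and TRIM28 brings the histone methyltransferase SETDB1, heterochromatin proteins and histone deacetylases to the site. The family grew by repeated tandem duplication, so that chromosome 19 holds long clusters of similar neighbours, and many of the proteins bind and silence sequences derived from retrotransposons. In the open reading frames, a KRAB match was found in 210 of the 249 genes, none in 38, and 1 gene, the readthrough ZNF625-ZNF20, had no reading frame to scan. A missing match does not show that the domain is absent. The number of fingers found had a median of 12 and ran from 0 to 39.

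The 9 libraries held 12544690 to 20438727 counts each, which allowed 15440 genes to be tested. All 6 treated libraries differed from all 3 controls in measures that can follow RNA quality. The nuclear RNA MALAT1 made up 0.409% to 1.54% of counts in treated libraries and 0.247% to 0.351% in controls, with no overlap. NEAT1 made up 0.0687% to 0.441% in treated libraries and 0.0302% to 0.0418% in controls. The 84 ribosomal protein genes made up 1.03% to 2.07% in treated libraries and 2.48% to 2.89% in controls. Within the treated libraries, replicate 3 at 72 h stood apart. MALAT1 made up 1.54% of its counts, while replicates 1 and 2 at 72 h had 0.437% and 0.409%. Its share for the ribosomal protein genes was 1.03%, with 1.59% and 1.83% in those replicates. Counts of genes past the test over all the zinc finger genes, and over some clusters, are given below with and without this library. Other counts at 72 h include it. All 10 of a list of known TGF-β response genes were higher at 48 h and at 72 h than in controls, by the test described below. Of all tested genes, 14.9% were higher at 48 h and 20.4% at 72 h. The list was chosen with earlier results of these data known, so it is no independent check of the treatment. The squamous markers KRT5, KRT14 and the others of a list of 8 were all present. Among 6 fibroblast markers, 2 were tested and both were higher in treated cells, and the summed level of the 6 was between 43.1 and 113 CPM in the 48 h libraries, between 35.0 and 112 CPM in the 72 h libraries and between 12.9 and 18.0 CPM in controls, where CPM is the count scaled to a common library size (TMM-scaled CPM). The 2 were COL1A1 and FAP. Of the fibroblast-defining genes, DCN had 1 count, LUM 5, PDGFRA 6 and PDGFRB 22 over the 9 libraries. Summed immune markers stayed at or under 1.07 CPM and summed endothelial markers at or under 2.66 CPM in every library.

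Of the 249 zinc finger genes, 192 had enough counts to be tested and 57 did not. Among the 57, 16 had no count in any of the 9 libraries, and 41 had some counts. No count allows a level of up to 0.02 CPM of counted reads (3 counts over all libraries, counting error only). Reads that the counting may have left out, as shared between similar or overlapping genes, are not covered by this bound. The 16 were ZNF177, ZNF625-ZNF20, ZNF682, ZNF486, ZNF66, ZNF729, ZNF98, ZNF492, ZNF723, ZNF728, ZNF816-ZNF321P, ZNF415, ZNF677, ZNF331, ZNF582 and ZNF135. A further 29 had 1 to 10 counts in all. Near the border, ZNF614 was tested with 81 counts and ZNF763 was not tested with 99. Between 180 and 188 of the genes reached 1 CPM in a given library.

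Levels of the tested genes were low. Per kilobase of exon, the median tested zinc finger gene had 2.72 CPM in controls, against 3.94 CPM over all tested genes. The highest level per kilobase in controls was that of ZNF146, a protein made almost only of fingers, at 43.4 CPM per kb. ZNF121 followed at 23.4 CPM per kb, ZNF460 at 19.7, ZNF317 at 14.7 and ZNF787 at 12.6. Genes of one cluster differed sharply in their counts. In the cluster between 19.7 and 24.1 Mb, described below, each of the 20 untested genes had at most 6 counts over all 9 libraries, whereas each of the 17 tested genes had at least 425. ZNF43, ZNF85, ZNF208 and ZNF257 are among the 20, with 2, 3, 6 and 1 counts.

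After TGF-β1 the zinc finger genes were lower as a group. Their summed level was 2915, 2789 and 3146 CPM in the 48 h libraries, 2734, 2925 and 3265 CPM in the 72 h libraries and 3650, 3847 and 3717 CPM in the controls. Every treated library lay below every control library. The means were 2950 ± 181 CPM at 48 h, 2975 ± 269 CPM at 72 h and 3738 ± 100 CPM in controls (SD, n = 3 each), which is 0.789 times the control sum at 48 h and 0.796 times at 72 h. A two-sided exact permutation test gave p = 0.1 for each time, the smallest value that 3 libraries against 3 allow. The shares of MALAT1, NEAT1 and ribosomal protein transcripts separated the same treated and control libraries, and their part in the lower sums was not tested. Fewer transcripts per cell and a change in which cells are present cannot be told apart in such bulk samples.

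Gene by gene, 54 of the 192 tested genes fell at 48 h and 3 rose, at a Benjamini-Hochberg adjusted p under 0.05 over all 15440 genes (quasi-likelihood test of edgeR). The lower genes were 28.1% of the 192, against 16% of all tested genes, and the higher genes 1.56%, against 14.9%. At 72 h, 56 fell and 8 rose. That is 29.2% lower against 19.4% of all tested genes, and 4.17% higher against 20.4%. The 48 h and 72 h comparisons share the same 3 controls, so they are not independent of each other. The median log2 fold change of the tested zinc finger genes was -0.23 at 48 h, where it was -0.0019 over all tested genes, and -0.20 at 72 h, where it was 0.03 over all tested genes. Fold changes were below 0 for 132 of the 192 genes at 48 h and for 127 at 72 h. Of all 15440 tested genes, 7728 were below 0 at 48 h and 7463 at 72 h. Of the 218 tested ZNF genes on other chromosomes, 150 and 139 were.

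The share of genes whose libraries did not overlap between the groups was read beside that of all tested genes. All 3 libraries at 48 h lay below all 3 controls for 82 of the 192 genes, 28.1% of all tested genes doing the same, and above them for 22, against 25.6% of all tested genes. At 72 h the libraries lay below the controls for 70 genes, against 27.7% of all tested genes, and above them for 14, against 27.3%. By the adjusted p threshold and without replicate 3 at 72 h, 65 genes were lower and 10 higher at 48 h. In the 72 h comparison 66 were lower and 5 higher. Among all 15842 genes tested in that setting, 3178 were lower and 3111 higher at 48 h, and 2841 and 2891 at 72 h. With all 9 libraries, 2478 and 2301 of 15440 were at 48 h, and 3001 and 3151 at 72 h. Without that library the median of the zinc finger genes at 72 h was -0.32. In that library the median deviation of the zinc finger genes from their control mean was -0.02 on the log2 scale, against -0.31 and -0.27 in replicates 1 and 2 at 72 h and -0.18 to -0.29 at 48 h. The small counts of genes called higher by the adjusted p moved with other libraries too. At 48 h the 3 higher genes became 6 without replicate 1 at 72 h and 1 without control replicate 3, and at 72 h the 8 became 4 without control replicate 1 and 5 without control replicate 2 or 3. In those 48 h settings 2328 and 1450 of all tested genes were higher, in that order. At 72 h 2133, 2039 and 2252 were higher without control replicate 1, 2 and 3.

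**Figure D1:**
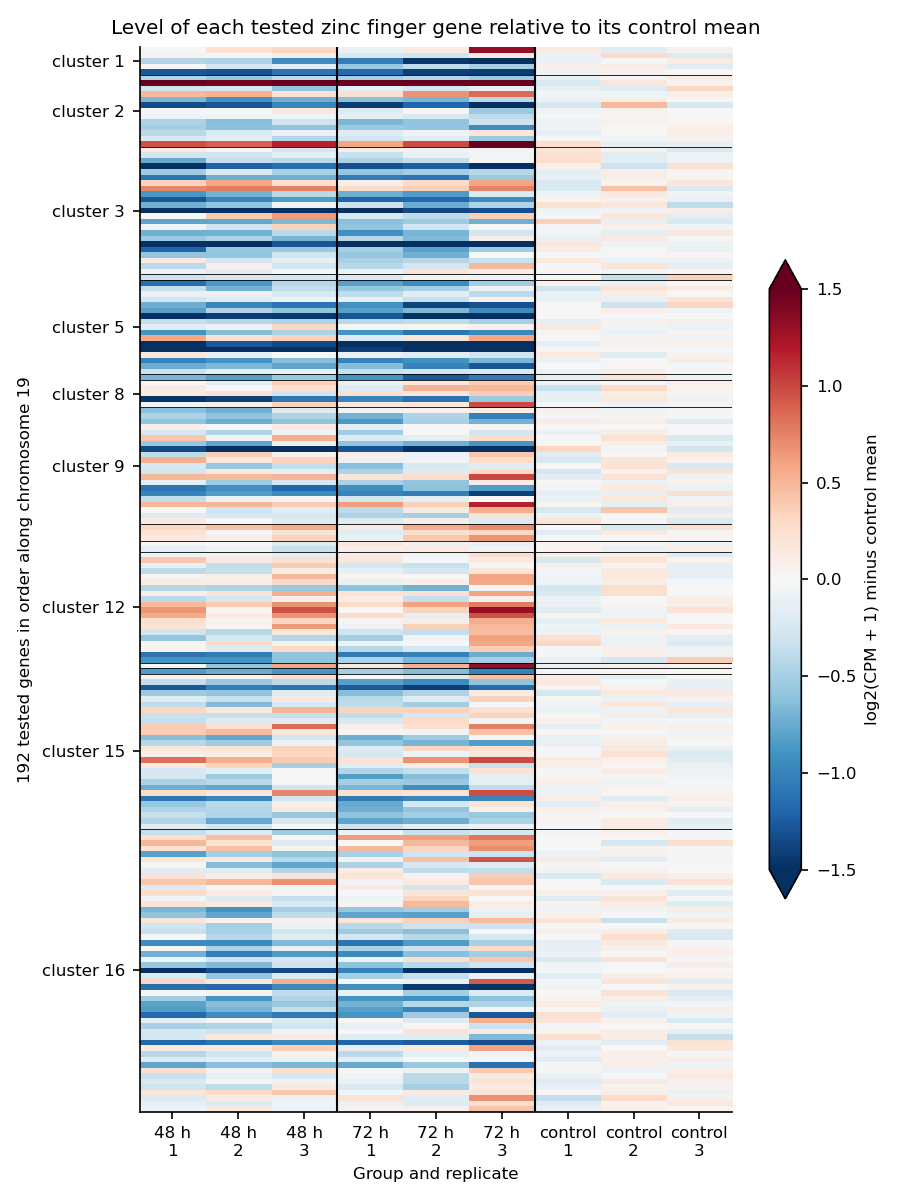
Level of each of the 192 tested zinc finger genes in each of the 9 libraries, as log2(CPM + 1) minus the gene's mean in controls, with genes in rows in their order along chromosome 19 and lines between clusters. Blue, for lower levels, marks many rows of clusters 3 and 5 in the treated libraries, and the median deviation over all rows is -0.02 in replicate 3 at 72 h and between -0.18 and -0.31 in the other treated libraries.

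The fall was compared with that of other genes. The 264 ZNF genes on other chromosomes, 218 of them tested, had 48 lower and 6 higher at 48 h (22% and 2.75%) and 51 lower and 12 higher at 72 h (23.4% and 5.5%), with medians of -0.21 and -0.20. The other coding genes of chromosome 19, 705 of them tested, had 113 lower and 112 higher at 48 h, and 122 lower and 192 higher at 72 h, with medians of -0.04 and 0.15. By these counts the zinc finger genes of chromosome 19 lay close to zinc finger genes elsewhere and apart from their neighbours on the chromosome. Median GC content was 42.7% for the tested zinc finger genes of chromosome 19 and 45.4% for those elsewhere. For the other tested coding genes of chromosome 19 it was 60.0%. Coding genes of any chromosome, ZNF genes left out, had a median of 0.30 at 72 h where GC content was 55% and over. The differences between these sets, and the part of GC content in them, were not tested. Shares within ranges of GC content are given below.

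**Figure D2:**
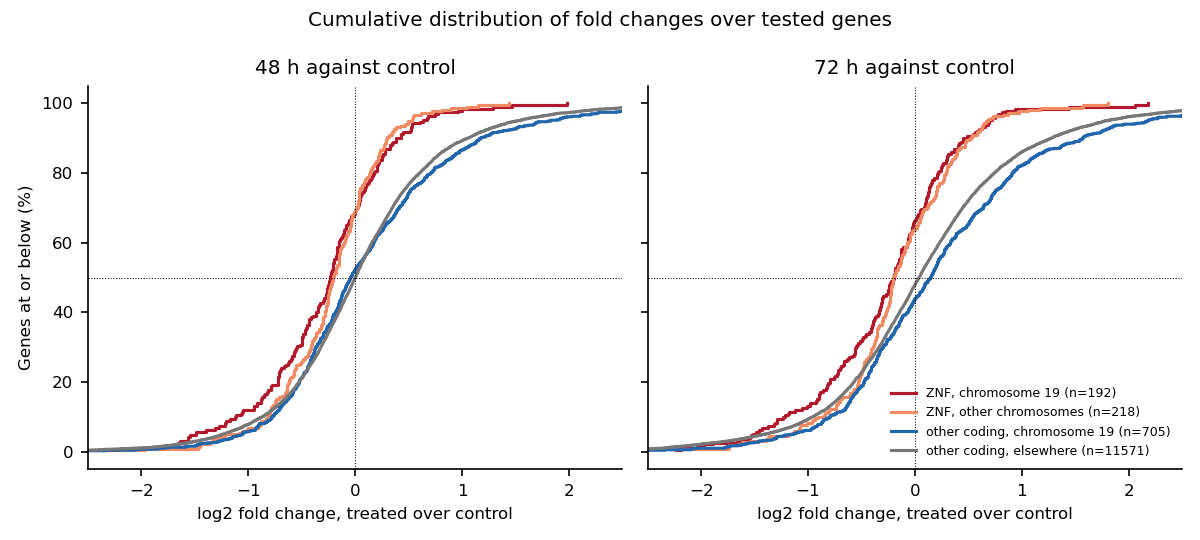
Cumulative share of tested genes (vertical axis, %) at or below each log2 fold change (horizontal axis) at 48 h and at 72 h against control. The curves of the 192 zinc finger genes of chromosome 19 and of the 218 elsewhere run left of those of the other coding genes, with medians of -0.23 and -0.21 at 48 h and -0.20 for both sets at 72 h.

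Clusters were defined by a gap of more than 1 Mb between neighbouring starts, which gave 16 of them, 9 with at least 5 tested genes. Of these 9, the clusters numbered 3 and 5 from the short-arm end had the most negative medians at both times. For cluster 3 at 72 h that order rested on single libraries. Over all tested genes, 16% were lower and 14.9% higher at 48 h. At 72 h, 19.4% were lower and 20.4% higher. Omitting single libraries moved the calls over all tested genes as well, so the cluster counts below are to be read beside those. With all 9 libraries 2478 genes were lower and 2301 higher at 48 h, and 3001 and 3151 at 72 h. With single libraries omitted, 1344 to 3178 were lower and 1287 to 3111 higher at 48 h. At 72 h, 2072 to 3010 were lower and 2039 to 3174 higher. Cluster 3 (chromosome 19, 11483427 to 12640098, ZNF653 to ZNF791) had 9 of 23 tested genes lower at 48 h and 9 at 72 h, with median log2 fold changes of -0.67 and -0.61. Cluster 5 (19668796 to 24129961, ZNF101 to ZNF254, 36 of its 37 genes with a KRAB match) had 10 of 17 lower at 48 h and 10 at 72 h, none higher at either time, and medians of -0.65 and -0.79. Omitting single libraries gave 6 to 10 lower genes in cluster 5 at 48 h, the 6 without replicate 1 at 48 h or control replicate 3, and 9 or 10 at 72 h. In cluster 3 it gave from 6 to 12 in the 48 h comparison and from 6 to 10 in the 72 h comparison. The 72 h median of cluster 3 was -0.40 without replicate 2 at 72 h and -0.38 with a correction for GC content and length. At 72 h cluster 1 was more negative than cluster 3 without replicate 1 at 72 h (-0.49 against -0.45), without replicate 2 at 72 h (-0.60 against -0.40) and without control replicate 3 (-0.63 against -0.53).

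Genes of cluster 12 (43525497 to 45076588, ZNF575 to ZNF296) gave other counts, with 2 of 20 lower at each time (1 to 3 at 48 h and 1 or 2 at 72 h when single libraries were omitted), 1 higher at 72 h and medians of 0.14 and 0.11. Single libraries moved these medians, which were 0.0024 at 48 h without replicate 3 at 48 h, 0.02 at 48 h without control replicate 3, -0.09 at 72 h without replicate 3 at 72 h and 0.23 at 72 h without replicate 1 at 72 h. Cluster 16, nearest the long-arm end (55476332 to 58481230, ZNF628 to ZNF446), had 14 of 51 lower at 48 h, or 9 without control replicate 2. The 14 are 27.5%, against 16% of all tested genes. At 72 h it had 11 lower and 2 higher, and the 21.6% lower is near the 19.4% of all tested genes. With single libraries omitted, the 72 h counts were 8 to 14 lower and 1 or 2 higher. The 8 came without control replicate 1 and the 14 without replicate 3 at 72 h. Cluster 15 (51571298 to 53580269) had 5 of 28 lower at 48 h, and 7 lower and 1 higher at 72 h. The lower shares are 17.9% at 48 h, near the 16% of all tested genes, and 25.0% at 72 h, against 19.4%. The count of cluster 15 at 48 h moved with single libraries, as did that over all tested genes. It was 2 without replicate 1 or 2 at 48 h or control replicate 1 or 3, and 3 without control replicate 2. In those settings 1346, 1923, 1467, 1541 and 1344 of all tested genes were lower, in that order, against 2478 with all libraries. Without replicate 3 at 72 h the cluster count was 9 at 48 h and 11 at 72 h, where 3178 and 2841 of all tested genes were lower. Cluster 9 (36182060 to 37817300) had 5 of 21 lower at 48 h (23.8%), or 3 without control replicate 1 or 2. At 72 h it had 6 lower (28.6%) and 1 higher, or 8 lower without replicate 3 at 72 h. Cluster 2 (7069444 to 9793180) held 5 of 13 lower at each time beside 2 higher at 48 h and 3 higher at 72 h. Its 48 h counts were 3 lower without control replicate 3 and 1 higher without control replicate 2 or 3. Cluster 1, at the short-arm end (2819874 to 2944971), had 1 of its 5 genes lower at 48 h and 3 at 72 h. Clusters were not tested against each other.

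**Figure D3:**
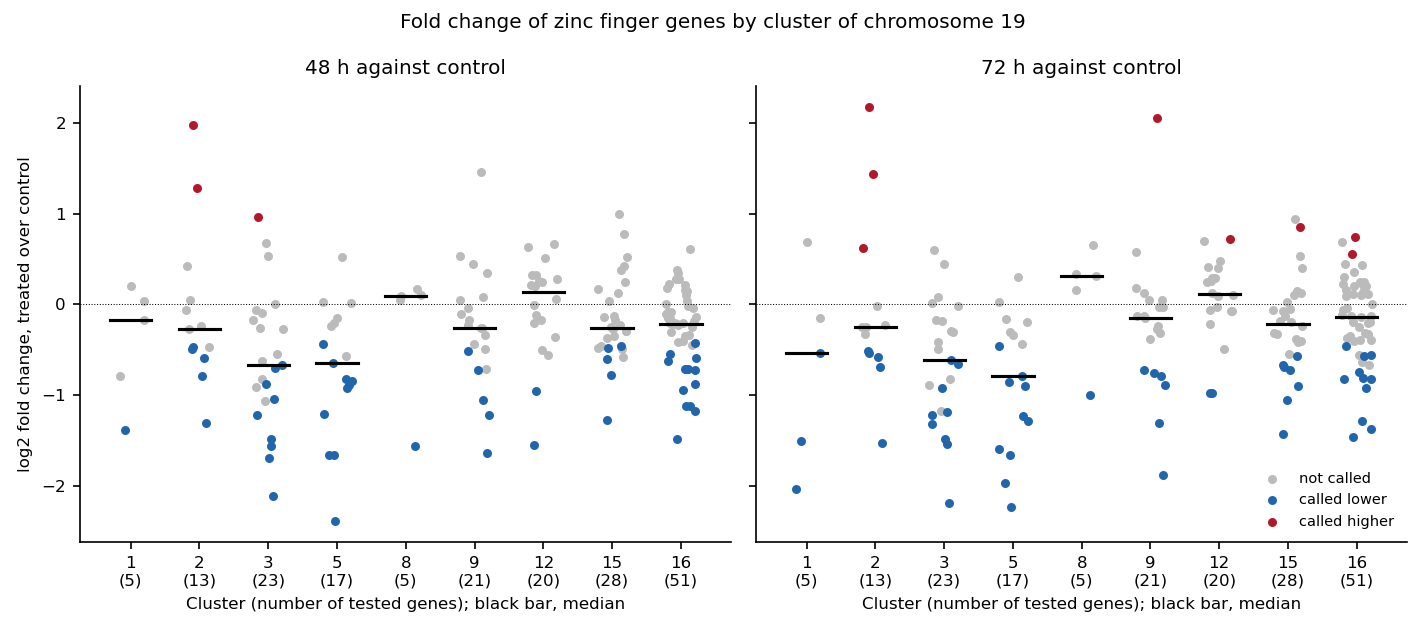
Log2 fold change (vertical axis, treated over control) of every tested gene in the 9 clusters with at least 5 tested genes, with the number of tested genes in brackets under each cluster number and a black bar at the median. The medians of clusters 3 and 5 lie between -0.61 and -0.79, and those of cluster 12 at 0.14 and 0.11, which without single libraries reach 0.0024 at 48 h and -0.09 at 72 h, while that of cluster 3 at 72 h reaches -0.40.

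Cluster 5 held the gene with the most negative fold change at both times, ZNF724, a KRAB gene with 14 fingers. ZNF724 (chromosome 19, 23221599 to 23250390, minus strand) had 1.60, 2.33 and 2.20 CPM at 48 h, 3.38, 2.28 and 1.11 CPM at 72 h and 10.9, 10.7 and 10.5 CPM in controls. Every treated library lay far below every control. Its log2 fold change was -2.39 ± 0.35 at 48 h (approximate standard error, adjusted p = 0.00176) and -2.23 ± 0.34 at 72 h (adjusted p = 0.00136). ZNF100 (21722766 to 21767628, minus strand) had 3.29, 5.15 and 4.81 CPM at 48 h, 3.72, 3.13 and 3.77 CPM at 72 h and 12.7, 14.4 and 14.6 CPM in controls. It fell by 1.66 ± 0.21 at 48 h and by 1.97 ± 0.21 at 72 h on the log2 scale. ZNF714 (21082159 to 21125270, plus strand) had 7.83, 11.2 and 10.9 CPM at 48 h, 12.3, 10.4 and 7.17 CPM at 72 h and 31.5, 31.4 and 31.6 CPM in controls, a fall by 1.66 ± 0.21 at each time. In each of these genes the 3 controls lay close together and all treated libraries lay below them.

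These 3 genes are shown with the 250 bases before their RefSeq start (build GRCh38.p14), since they lie in one cluster, all fell at both times and have similar promoters. They are not next to each other, and ZNF208 and ZNF257, with 6 counts and 1 count in all, lie between ZNF100 and ZNF724. Capitals mark matches to 2 patterns on either strand, CCAATCAG, a CCAAT box of the kind bound by NF-Y, and CCGGAAG (or CTTCCGG on the other strand), the core bound by ETS factors. ZNF100 and ZNF714 are identical at 204 of 250 bases once aligned, ZNF100 and ZNF724 at 199, and ZNF714 and ZNF724 at 195. The CCAATCAG nearest the start is flanked by similar letters in all 3, and ZNF714 and ZNF724 have a second copy further from the start. The ETS pattern has a match in ZNF100 and ZNF724 and none in ZNF714.
ZNF100: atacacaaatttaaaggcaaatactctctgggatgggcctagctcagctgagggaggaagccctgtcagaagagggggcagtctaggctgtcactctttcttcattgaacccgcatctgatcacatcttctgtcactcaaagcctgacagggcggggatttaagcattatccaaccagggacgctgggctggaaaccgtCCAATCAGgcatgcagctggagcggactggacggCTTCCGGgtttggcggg
ZNF714: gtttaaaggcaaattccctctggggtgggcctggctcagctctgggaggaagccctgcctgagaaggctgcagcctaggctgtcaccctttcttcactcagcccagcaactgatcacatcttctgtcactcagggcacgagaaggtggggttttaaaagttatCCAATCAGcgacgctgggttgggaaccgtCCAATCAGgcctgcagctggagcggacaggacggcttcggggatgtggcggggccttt
ZNF724: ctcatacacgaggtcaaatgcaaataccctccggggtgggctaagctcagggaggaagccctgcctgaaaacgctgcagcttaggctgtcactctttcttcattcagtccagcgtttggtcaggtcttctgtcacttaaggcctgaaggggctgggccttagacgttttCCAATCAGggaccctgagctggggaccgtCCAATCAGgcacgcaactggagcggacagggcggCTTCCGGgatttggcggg
The windows are at 21767580 to 21767829 (minus strand), 21081953 to 21082202 (plus strand) and 23250395 to 23250644 (minus strand) of chromosome 19, in that order. The windows of ZNF100 and ZNF714 reach partly into the span that GENCODE gives each gene, and that of ZNF724 does not. A match is a run of letters and not a known binding site.

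Other genes of cluster 5 fell by less. ZNF93 (19900913 to 19963464), known for binding LINE retrotransposons, had 2.79, 2.21 and 1.96 CPM at 48 h, 2.37, 1.42 and 1.54 CPM at 72 h and 5.31, 4.08 and 6.81 CPM in controls. Its log2 fold change was -1.20 ± 0.29 at 48 h (adjusted p = 0.0138, lost without control replicate 3) and -1.59 ± 0.30 at 72 h (adjusted p = 0.00324). ZNF675, which is known to inhibit TRAF6 signalling, averaged 14.1 CPM at 48 h, 13.9 CPM at 72 h and 26.0 CPM in controls, and fell at both times. ZNF738, ZNF681, ZNF430, ZNF101 and ZNF431 also fell at both times, with log2 fold changes between -0.43 and -0.92 at 48 h and between -0.45 and -1.29 at 72 h. At 48 h the calls of ZNF738 and ZNF681 were lost without replicate 1 at 48 h or any 1 control, that of ZNF681 also without replicate 3 at 48 h, and that of ZNF101 without replicate 1 at 48 h or control replicate 1. The calls of ZNF431, the smallest of these changes, were lost at 48 h without any of the 48 h libraries and at both times without control replicate 2 or 3.

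ZNF91, in the same cluster, showed no such change. It silences SVA and LINE retrotransposons, and its product has 32 fingers by the count used here. ZNF91 (23304991 to 23395560, minus strand) had 42.5, 35.0 and 37.8 CPM at 48 h, 35.1, 33.4 and 30.6 CPM at 72 h and 41.7, 33.1 and 39.1 CPM in controls. The groups overlap, and its log2 fold changes of 0.02 ± 0.13 at 48 h and -0.20 ± 0.13 at 72 h did not pass the test. At 48 h its sign turned under a correction for GC content and length and without either replicate 1 at 48 h or control replicate 2.

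In cluster 3 the gene with the smallest p at 72 h was ZNF844, a KRAB gene with 6 fingers found. ZNF844 (12064699 to 12081565, plus strand) had 9.53, 10.5 and 10.8 CPM at 48 h, 10.4, 12.4 and 12.7 CPM at 72 h and 32.0, 32.0 and 35.5 CPM in controls. The groups stand well apart, and the spread within each is small. Its log2 fold change was -1.69 ± 0.14 at 48 h (adjusted p = 0.000241) and -1.49 ± 0.14 at 72 h (adjusted p = 0.000215). ZNF442 (12345949 to 12365905, minus strand) had 0.948, 1.53 and 2.04 CPM at 48 h, 1.30, 1.42 and 1.48 CPM at 72 h and 7.29, 5.96 and 6.02 CPM in controls. It fell by 2.11 ± 0.29 at 48 h and by 2.19 ± 0.29 at 72 h on the log2 scale. ZNF441 (11767000 to 11784078) had 3.14, 5.64 and 6.03 CPM at 48 h, 5.13, 5.53 and 4.26 CPM at 72 h and 15.2, 11.4 and 17.0 CPM in controls, with falls by 1.56 ± 0.27 and 1.54 ± 0.27. ZNF433, ZNF625, ZNF440, ZNF700 and ZNF44 of this cluster fell at both times as well, by 0.61 to 1.49 on the log2 scale. The calls of ZNF700 and ZNF44 were lost at both times without replicate 1 or 2 of the treated group compared or any 1 control, those of ZNF700 also with the GC and length correction, and that of ZNF44 at 48 h also without replicate 2 at 72 h. ZNF625 was lost at 72 h without control replicate 1.

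Outside those clusters, large falls were spread along the chromosome. ZNF850 in cluster 9 (36714383 to 36772825), with 30 fingers, had 7.68, 6.62 and 6.28 CPM at 48 h, 8.06, 5.30 and 4.02 CPM at 72 h and 26.5, 20.6 and 17.3 CPM in controls. It fell by 1.64 ± 0.26 at 48 h and by 1.89 ± 0.27 at 72 h. ZNF699 in cluster 2 averaged 11.8 CPM at 48 h, 10.1 CPM at 72 h and 29.3 CPM in controls, where it varied most of all the tested zinc finger genes, at 23.8, 40.2 and 23.9 CPM. All treated libraries of ZNF699 lay at or under 13.9 CPM, and it fell by 1.31 ± 0.23 and 1.53 ± 0.24. ZNF30 in cluster 8 (34926903 to 34945170) had 2.74, 2.94 and 3.91 CPM at 48 h, 4.17, 3.76 and 6.12 CPM at 72 h and 8.62, 10.6 and 8.96 CPM in controls. It fell by 1.56 ± 0.25 at 48 h and by 1.00 ± 0.24 at 72 h, while none of the other 4 genes of its cluster passed the test.

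Towards the long-arm end, ZNF256 (57940833 to 57947675, minus strand), whose KRAB domain is known to bind TRIM28, had 7.83, 8.39 and 9.29 CPM at 48 h, 7.72, 7.41 and 6.98 CPM at 72 h and 18.4, 17.0 and 22.1 CPM in controls. It fell by 1.17 ± 0.16 and 1.38 ± 0.16. ZNF530 averaged 11.2 CPM at 48 h, 11.4 CPM at 72 h and 31.5 CPM in controls, and ZNF551 averaged 25.2, 22.5 and 54.8 CPM in the same order. Both fell at both times, by 1.12 to 1.49 on the log2 scale. ZNF649 in cluster 15, reported to repress MAP kinase signalling, had 5.04, 6.13 and 5.79 CPM at 48 h, 5.13, 4.50 and 5.56 CPM at 72 h and 14.2, 14.3 and 12.4 CPM in controls, with falls by 1.27 ± 0.17 and 1.43 ± 0.17. ZNF180 in cluster 12 had 13.7, 14.2 and 19.8 CPM at 48 h, 14.1, 14.6 and 17.9 CPM at 72 h and 30.1, 32.4 and 29.3 CPM in controls. It fell by 0.95 ± 0.17 and 0.98 ± 0.17, against the median of its cluster.

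Single genes away from the clusters fell too. ZNF473, a component of the machinery that processes histone messenger RNA, had 20.4, 21.9 and 20 CPM at 48 h, 26.3, 23.6 and 18.2 CPM at 72 h and 36.4, 38.4 and 37.6 CPM in controls, a fall by 0.85 ± 0.15 at 48 h and by 0.72 ± 0.15 at 72 h. ZNF507 had 17.3, 15.7 and 19.1 CPM at 48 h, 14.9, 11.3 and 13.3 CPM at 72 h and 25.9, 32.8 and 27.3 CPM in controls, a fall by 0.72 ± 0.16 and 1.12 ± 0.16. Neither gene overlapped the controls in any treated library.

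At the short-arm end, ZNF77 (2933218 to 2944971, minus strand) had 4.54, 4.41 and 5.30 CPM at 48 h, 4.96, 4.10 and 4.02 CPM at 72 h and 11.8, 13.0 and 12.5 CPM in controls. It fell by 1.39 ± 0.18 and 1.51 ± 0.18. Its promoter is shown because it held 5 copies of the CCAAT pattern, against 1 or 2 in the promoters of ZNF100, ZNF714 and ZNF724.
ZNF77: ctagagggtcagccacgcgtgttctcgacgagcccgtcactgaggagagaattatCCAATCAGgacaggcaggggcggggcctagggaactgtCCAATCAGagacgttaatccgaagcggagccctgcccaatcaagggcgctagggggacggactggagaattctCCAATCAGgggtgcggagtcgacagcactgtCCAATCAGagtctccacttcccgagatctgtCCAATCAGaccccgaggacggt
The window is at 2944972 to 2945221 (minus strand), and capitals mark CCAATCAG. ZNF556, in the same cluster, had 2.74, 2.63 and 1.63 CPM at 48 h, 1.47, 0.855 and 0.618 CPM at 72 h and 3.74, 3.97 and 4.51 CPM in controls. At 72 h it fell by 2.04 ± 0.35 (adjusted p = 0.00213), and at 48 h its log2 fold change of -0.79 ± 0.33 did not pass the test (adjusted p = 0.0922), although the libraries did not overlap.

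**Figure D4:**
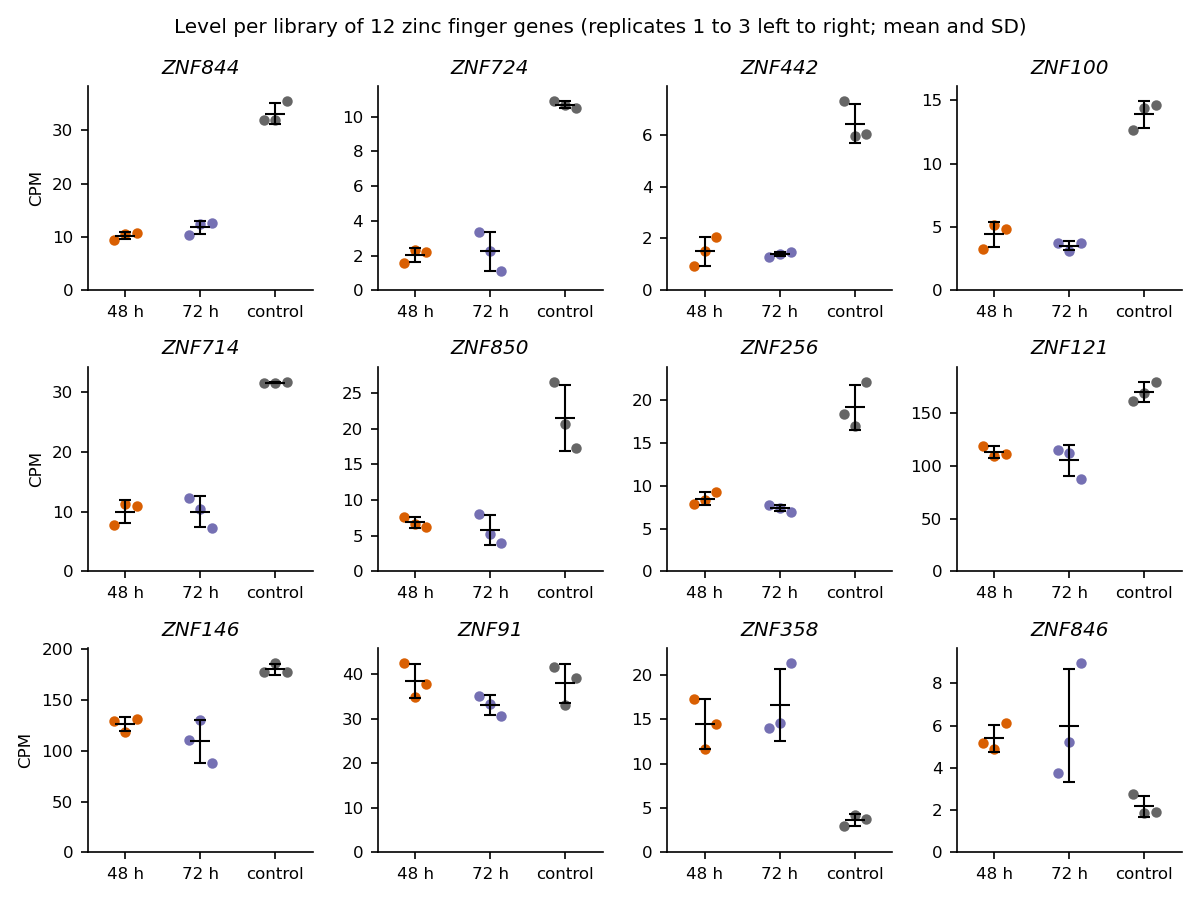
CPM of 12 zinc finger genes in each library, with replicates 1 to 3 from left to right in each group and the mean and SD of 3 libraries in black. The treated libraries of 9 of the genes lie below all controls, those of ZNF358 and ZNF846 above them, and those of ZNF91 among them.

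The genes with the highest levels per kilobase were split. ZNF146 (36214602 to 36238774) had 129, 118 and 131 CPM at 48 h, 110, 130 and 87.9 CPM at 72 h and 177, 186 and 177 CPM in controls. It fell by 0.52 ± 0.15 at 48 h (adjusted p = 0.0242, lost without any 1 of the 48 h or control libraries) and by 0.72 ± 0.15 at 72 h (adjusted p = 0.00454). ZNF121 had 119, 109 and 111 CPM at 48 h, 115, 112 and 87.7 CPM at 72 h and 161, 169 and 179 CPM in controls, and fell by 0.59 ± 0.13 and 0.70 ± 0.13. ZNF317 had 45.9, 39.1 and 44.3 CPM at 48 h, 47.6, 45.4 and 55.9 CPM at 72 h and 69.8, 79.3 and 73.8 CPM in controls, and fell by 0.78 ± 0.12 and 0.58 ± 0.12. The highest treated library of each of these 3 genes lay below its lowest control. ZNF460 had 78.7, 75.4 and 58.4 CPM at 48 h, 69.3, 96.7 and 74.1 CPM at 72 h and 71.5, 75.0 and 60.1 CPM in controls. ZNF787 had 41.5, 41.2 and 33.8 CPM at 48 h, 49.9, 35.2 and 35.7 CPM at 72 h and 44.6, 48.4 and 45.9 CPM in controls. Neither of them passed the test, with log2 fold changes of 0.04 ± 0.17 and 0.22 ± 0.17 for ZNF460 and -0.25 ± 0.16 and -0.20 ± 0.16 for ZNF787.

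Few of the genes rose, and ZNF358 rose most at 48 h and at 72 h. ZNF358 (chromosome 19, 7515292 to 7521026, plus strand) has 9 fingers, no KRAB match and a GC content of 69.1%. It had 17.3, 11.6 and 14.4 CPM at 48 h, 14, 14.6 and 21.3 CPM at 72 h and 2.95, 4.19 and 3.8 CPM in controls. Every treated library exceeded every control, with log2 fold changes of 1.99 ± 0.24 at 48 h (adjusted p = 0.000909) and 2.18 ± 0.24 at 72 h (adjusted p = 0.000438). The exons of ZNF358 overlap those of 2 other genes, and the strand setting of the counting is not given in the sources used here, so reads of these genes may be mixed. Its promoter, as RefSeq places it, is shown for contrast with those of the genes that fell. It has neither CCAATCAG nor CCGGAAG, and capitals mark 1 copy of CAGACA, the SMAD-binding box described in TGF-β response genes.
ZNF358: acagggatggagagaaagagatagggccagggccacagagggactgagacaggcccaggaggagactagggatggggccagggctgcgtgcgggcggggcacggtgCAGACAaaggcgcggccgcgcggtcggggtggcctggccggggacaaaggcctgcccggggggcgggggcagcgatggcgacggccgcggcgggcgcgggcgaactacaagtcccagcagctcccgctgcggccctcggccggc
The window is at 7515853 to 7516102 (plus strand), which lies inside the span that GENCODE gives the gene, so the annotations differ in where it starts. It holds 26 CG dinucleotides, against 8 in ZNF100 and in ZNF714, 11 in ZNF724 and a median of 16 over the promoters of the zinc finger genes.

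ZNF846 had 5.19, 4.90 and 6.11 CPM at 48 h, 3.78, 5.24 and 8.96 CPM at 72 h and 2.77, 1.88 and 1.93 CPM in controls. It rose by 1.29 ± 0.33 at 48 h (adjusted p = 0.0170, lost without control replicate 2 or 3) and by 1.44 ± 0.33 at 72 h (adjusted p = 0.00778). ZNF69 rose at 48 h by 0.96 ± 0.31 (adjusted p = 0.0421), with 3.84, 3.98 and 3.91 CPM at 48 h, 2.54, 2.73 and 3.89 CPM at 72 h and 1.51, 2.95 and 1.5 CPM in controls. That call was lost without any 1 of the 48 h libraries and without control replicate 1 or 3. ZNF558, a repressor studied in human neural progenitors, had 33.6, 34.6 and 27.6 CPM at 48 h, 28.2, 38.4 and 43.4 CPM at 72 h and 23.1, 22.7 and 25.4 CPM in controls. It rose at 72 h by 0.63 ± 0.17 (adjusted p = 0.0163, lost without control replicate 1 or 2).

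The remaining genes called higher at 72 h had small changes or low levels. ZNF579 rose by 0.75 ± 0.16, with 13.8, 13.7 and 15.6 CPM at 72 h against 8.56, 8.65 and 8.46 CPM in controls, and ZNF865 by 0.56 ± 0.18, with 10.8, 9.46 and 12.6 CPM against 7.23, 7.73 and 7.24 CPM. Their GC contents are 65.85% and 71.1%, and under a correction for GC content and length ZNF579 was no longer called and the log2 fold change of ZNF865 was -0.09. ZNF865 was also lost without replicate 1 or 3 at 72 h or any 1 control. ZNF284 rose by 0.73 ± 0.23 (adjusted p = 0.0322) and ZNF701 by 0.86 ± 0.29 (adjusted p = 0.0415). Both calls were lost without replicate 2 or 3 at 72 h or any 1 control, and ZNF701 also without replicate 1 or 2 at 48 h and with replicates paired by passage (0.85, adjusted p = 0.058). ZNF540, with 0.958, 0.627 and 1.85 CPM at 72 h against 0.301, 0.161 and 0.358 CPM in controls, rose by 2.06 ± 0.50 (adjusted p = 0.00961). At 48 h its log2 fold change of 1.47 ± 0.52 did not pass the test (adjusted p = 0.0548), and with replicates paired by passage it did (1.52, adjusted p = 0.0425). The exons of ZNF540 overlap those of 2 other genes.

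Several genes are known from other settings, and none of those tested passed the test at either time. ZNF611, which binds SVA retrotransposons, had log2 fold changes of -0.14 ± 0.19 at 48 h and -0.18 ± 0.19 at 72 h. ZNF808, which silences endogenous retroviral elements in the developing pancreas, had 0.17 ± 0.17 and -0.06 ± 0.17. ZNF274, which recruits SETDB1 to the ends of zinc finger genes themselves, had 40.7, 42.6 and 43.6 CPM at 48 h, 42.1, 46.5 and 46.1 CPM at 72 h and 41.4, 48.7 and 50.5 CPM in controls. Its groups overlap at both times, with log2 fold changes of -0.15 ± 0.12 and -0.06 ± 0.11. ZNF350, a partner of BRCA1, had -0.12 ± 0.21 and -0.05 ± 0.21.

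Promoters of ZNF582, ZNF671, ZNF154, ZNF132 and ZNF382 are known to be methylated in carcinomas, and all 5 genes were low or without counts here. Methylation was not measured, and its part in these levels was not tested. Low levels were common in the family, with 57 of the 249 genes not tested for want of counts. ZNF582 had no count, and so had the imprinted gene ZNF331. ZNF382 had 23 counts and ZNF671 had 49 over the 9 libraries, too few to be tested. ZNF154 averaged 1.01 CPM at 48 h, 0.797 CPM at 72 h and 1.17 CPM in controls, and ZNF132 averaged 3.32, 2.77 and 2.54 CPM in the same order. Log2 fold changes at 48 h and 72 h were -0.20 ± 0.38 and -0.56 ± 0.39 for ZNF154, and 0.38 ± 0.22 and 0.12 ± 0.22 for ZNF132.

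Genes with a KRAB match had 46 of 161 lower and 2 higher at 48 h, and 48 lower and 5 higher at 72 h. Those without a match had 8 of 31 lower and 1 higher at 48 h, and 8 lower and 3 higher at 72 h. The shares of lower genes are 28.6% and 25.8% at 48 h, against 16% of all tested genes, and 29.8% and 25.8% at 72 h, against 19.4%. Of all tested genes, 14.9% were higher at 48 h and 20.4% at 72 h. ZNF180, ZNF473 and ZNF544, which are known to encode a KRAB domain that the pattern missed, are among the 8 lower genes without a match at each time. The sets with and without a match differ in base composition, with a median GC content of 42.3% and 59.6%. By the number of fingers, 1 of 11 genes with 0 to 5 fingers fell at 48 h, 17 of 54 with 6 to 10, 27 of 79 with 11 to 15 and 9 of 48 with 16 or more. These are 9.09%, 31.5%, 34.2% and 18.8%, the last near the 16% of all tested genes. Median GC content was 59.6% with 0 to 5 fingers and 43.5%, 42.4% and 41.0% in the other sets. Its part in these shares was not tested.

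GC content moved with the outcome and was therefore compared within ranges. Among genes under 40% GC, 15 of 44 zinc finger genes were lower at 48 h (34.1%), against 19% of other coding genes in that range, and 36.4% against 28.4% at 72 h. From 40 to 45%, the shares were 26.1% against 21.0% at 48 h and 28.4% against 27.1% at 72 h. From 45 to 55%, they were 35.9% against 19.3% at 48 h and 35.9% against 21.6% at 72 h. At 55% and over, 2 of 21 zinc finger genes were lower at 48 h and 1 of 21 at 72 h, which is 9.52% and 4.76%, against 13.5% and 13.1% of other coding genes. Higher genes were fewer than among other coding genes in all 4 ranges at both times. With a correction for GC content and length, 54 fell and 6 rose at 48 h, and 55 fell and 8 rose at 72 h. Of all 15399 genes tested with that correction, 2661 fell and 2372 rose at 48 h, and 3116 fell and 3097 rose at 72 h. Reads shared between genes of similar sequence are a further limit, and their part was not tested. Overlap of exons is a separate matter and does not measure such sharing. Among the 83 tested genes whose exons overlap no other gene 24 were lower at each time (28.9%). Of all tested genes, 16% were lower at 48 h and 19.4% at 72 h.

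**Figure D5:**
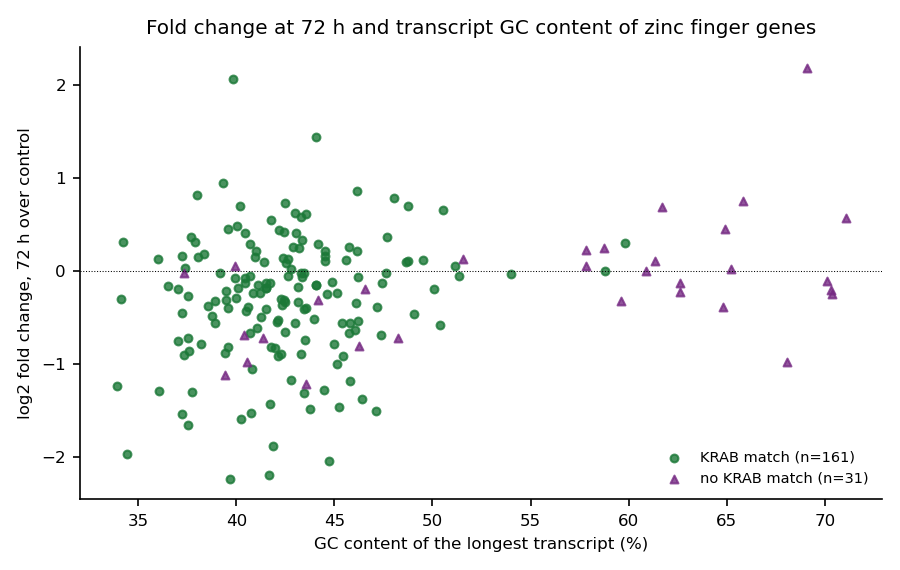
Log2 fold change at 72 h (vertical axis) against the GC content of the longest transcript (horizontal axis, %) for the tested zinc finger genes, with circles for the 161 with a KRAB match and triangles for the 31 without. Genes with a match gather around a GC content of 42.3%, where most fold changes are below 0, and ZNF358 is the triangle at 69.1% and 2.18.

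The promoter patterns were counted over all genes of the RefSeq table, which held 217 of the 249 genes by symbol and 27305 promoters in all, each read over the 250 bases before the start and on both strands. CCGGAAG stood in 31.8% of the zinc finger promoters, against 8.82% of all promoters and 26.2% of ZNF promoters on other chromosomes. It was no more common in genes that fell. The share was 26.5% for genes lower at 48 h, 26% for genes lower at 72 h and 30.8% for tested genes lower at neither time. CCAATCAG stood in 26.3%, against 3.98% of all promoters and 10.2% of ZNF promoters on other chromosomes. It was in 34.7% of the 49 promoters of genes lower at 48 h, in 40% of the 50 of genes lower at 72 h and in 17.1% of the 117 of tested genes lower at neither time. This pattern was chosen after the sequences had been seen, and since genes of one cluster such as ZNF100 and ZNF714 share most of their promoter bases, the promoters are not independent of each other. No test was made.

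Other patterns were rarer or closer to their share over all promoters. CAGACA stood in 14.3% of the zinc finger promoters, against 13.6% of all promoters, in 22.4% and 22% of those of genes lower at 48 h and at 72 h, and in 11.1% of those of tested genes lower at neither time. GTCTAGAC, a palindrome also bound by SMAD proteins, which shares the letters AGAC with CAGACA, stood in 1 of the 217. AAGATGG, bound by YY1, stood in 4.61%, against 3.77% of all promoters, GCGCATGC, bound by NRF1, in 3.69% against 2.81%, and GGCGGGAA, bound by E2F factors, in 4.61% against 2.77%.

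The partners of the KRAB domain were read from a list of 20 genes, all tested. At 48 h 3 were lower and 1 higher, where 16% and 14.9% of all tested genes were, and at 72 h 7 were lower and 1 higher, where 19.4% and 20.4% were. TRIM28, the co-repressor itself, had 269, 294 and 254 CPM at 48 h, 339, 287 and 221 CPM at 72 h and 419, 449 and 439 CPM in controls. It fell by 0.68 ± 0.16 at 48 h (adjusted p = 0.0136, lost without replicate 1 at 48 h or control replicate 2) and by 0.63 ± 0.16 at 72 h (adjusted p = 0.0139, lost without control replicate 2). SETDB1, the methyltransferase that TRIM28 recruits, had 27.1, 26.5 and 28.5 CPM at 48 h, 27.5, 31.8 and 40.6 CPM at 72 h and 26.6, 27.8 and 26.7 CPM in controls, and did not pass the test.

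Of the maintenance machinery of DNA methylation, DNMT1 had 111, 183 and 121 CPM at 48 h, 187, 114 and 76.2 CPM at 72 h and 298, 318 and 328 CPM in controls. It fell by 1.18 ± 0.31 at 48 h (adjusted p = 0.0189, lost without replicate 1 or 3 at 48 h or control replicate 2 or 3) and by 1.32 ± 0.31 at 72 h (adjusted p = 0.00912). UHRF1, which guides DNMT1 to newly made DNA, fell at 72 h by 1.73 ± 0.54 (adjusted p = 0.0340), a call lost without replicate 2 at 72 h or any 1 control. The heterochromatin proteins CBX3 and CBX5 fell at 72 h by 0.69 ± 0.14 and 0.88 ± 0.19. CBX3 was also called at 48 h, with a log2 fold change of -0.42 ± 0.14 and an adjusted p of 0.0472 that was lost under 15 of 22 alternatives, among them the pairing by passage (adjusted p = 0.062). HDAC2 fell at 72 h by 0.51 ± 0.12, and CHD4 by 0.35 ± 0.12, a call lost without replicate 2 or 3 at 72 h, replicate 1 or 2 at 48 h or any 1 control, and with replicates paired by passage (-0.36, adjusted p = 0.0564). CHD3, a remodelling helicase related to CHD4, rose by 0.80 ± 0.12 and 0.73 ± 0.12. Any part of these genes in the levels of the zinc finger genes was not tested.

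Between 72 h and 48 h, no zinc finger gene passed the test, and 0% of all tested genes did. At an unadjusted p under 0.05 there were 9 zinc finger genes among 1382 genes. DESeq2 called 39 genes, none of them a zinc finger gene of chromosome 19. The median log2 fold change of the tested zinc finger genes was 0.03, their summed level was 1.01 times that at 48 h, and the exact permutation p for the sums was 0.9. ZNF556 had the smallest p of these genes, with a log2 fold change of -1.25 between 72 h and 48 h (adjusted p = 0.466).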

How the data were processed

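Gene expression was measured in 9 NEBNext Ultra libraries, per the labels' protocols. The authors deposited raw counts of reads per gene, 1 table per library. The submitters' processing notes name bcl2fastq 2.17.1.14, FastQC 0.11.5, STAR 2.5.2a, featureCounts 1.5.0-p1 and build hg38. For annotation release, strand setting and multi-mapped reads, the choice was not given in the sources used here, so similar neighbours and overlapping genes may share reads.

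From these counts, identifiers were matched to GENCODE release 29 (57895 of 58233, the rest holding at most 0.0202% of a library's counts). Library totals of 12544690 to 20438727 limit the precision of low genes. Libraries were grouped by treatment and time from the labels. edgeR 4.0.16 in R 4.3.3 (TMM factors, filterByExpr, robust quasi-likelihood test, 1 model over all 9 libraries, 6 residual degrees of freedom) gave 48 h against control, 72 h against control and 72 h against 48 h. P-values were adjusted by Benjamini-Hochberg over all 15440 tested genes, with a threshold of 0.05. Standard errors are the log2 fold change divided by the square root of F. Summed CPM was compared by exact permutation. KRAB and finger patterns were searched in the longest open reading frame, and promoters were read from RefSeq (GRCh38.p14). The procedure was tested on simulated data.

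The genes and lists were chosen with earlier results of these data known. Named genes are, for each time, the 8 highest and 8 lowest fold changes among called genes with at least 2 CPM and no overlap, the 5 highest levels per kilobase, 11 genes fixed by name, the smallest p at 72 h in each cluster of at least 5 tested genes, and list genes called at both times. Others, such as ZNF675, ZNF699, ZNF530, ZNF551, ZNF473, ZNF507, ZNF540 and further called genes of clusters 3 and 5, were chosen after their values were seen. Alternatives were DESeq2 1.42.0, other scaling factors, no filter, only the 2 groups compared, a GC and length correction, a block for replicate number and the omission of each library and replicate number. Counts by GC range, by exon overlap, by cluster with libraries omitted, and of CCAATCAG were added after seeing the data. Replicate numbers were taken as pairs because the labels give each number 1 passage. The correlation of same-numbered deviations was 0.0781 to 0.121 between 48 h and control, 0.0378 to 0.109 between 72 h and control and -0.0253 to 0.493 between 72 h and 48 h.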

Additional observations from a re-analysis of the deposited data

How the results depend on the processing

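The lower counts at 48 h (54) and 72 h (56) stayed within 1.5 times under every alternative other than omission of replicates, and the medians stayed below 0 at both times in all of them. The 3 genes called higher at 48 h were 6 with DESeq2, 5 with DESeq2 size factors, 6 with the GC and length correction, 5 with no filter and 11 with only the 2 groups compared. Among all genes in those settings, 2718 of 16875, 2423 of 15440, 2372 of 15399, 2666 of 36944 and 3189 of 14810 were higher, in that order. The replicate block (pairing by passage) gave 6 higher and 55 lower at 48 h and 8 higher and 61 lower at 72 h, and with the GC and length correction 7 higher at 48 h. Over all 15440 genes the block gave 2565 higher and 2548 lower at 48 h, and 3303 higher and 3162 lower at 72 h. With the correction, 2654 of 15399 were higher at 48 h. Among the genes followed one by one, the block ended 4 calls (ZNF701, ZNF587, CBX3 and CHD4) and made 2 (ZNF540 at 48 h and ZNF543 at 72 h). When libraries or whole replicate numbers were left out, 1 to 10 genes were higher and 12 to 65 lower at 48 h, and 2 to 11 higher and 28 to 66 lower at 72 h. All tested genes, 15533 to 16000 in those settings, gave 409 to 3111 higher and 356 to 3178 lower at 48 h. At 72 h they gave 1551 to 3174 higher and 1051 to 3010 lower. The lowest lower counts of the zinc finger genes came without replicate 1 (12 and 28) and without replicate 2 (16 and 29). All tested genes also gave fewer calls there, with 356 and 1556 lower without replicate 1 and 483 and 1051 without replicate 2. Of the 54 genes lower at 48 h, 33 kept their call without any 1 library and 10 under all alternatives, and of the 56 at 72 h 44 and 24 did. Between 72 h and 48 h, the median ran from -0.10 to 0.11 with libraries left out, and 1 gene was called with no filter, ZNF114 (0.67, adjusted p = 0.0453), where 139 of all 36944 genes were higher and 72 lower. Signs turned for genes with values near 0. ZNF865 gave -0.062 at 48 h and -0.088 at 72 h with the GC and length correction, and -0.067 and -0.087 with the block added. ZNF91 at 48 h gave -0.039 with the correction, -0.043 with the block added and -0.073 to 0.090 with libraries left out. ZNF808 at 72 h gave 0.088 with the correction and with the block added, and -0.28 to 0.083 with libraries left out, against -0.013 to 0.35 at 48 h. ZNF350 at 72 h gave 0.091 with the correction, 0.062 with the block added, 0.0052 with upper-quartile factors and -0.31 to 0.11 with libraries left out. With libraries left out, ZNF460 at 48 h ran from -0.054 to 0.16, ZNF154 at 48 h from -0.38 to 0.018 and ZNF132 at 72 h from -0.012 to 0.21. The cause was not tested for any of these. Depth limits the 57 genes that were not tested.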

Other observations

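Some zinc finger genes of chromosome 19 have other names than ZNF. ZFP14, a KRAB gene, had 13.9, 9.5 and 16 CPM at 48 h, 9.53, 11.8 and 21.7 CPM at 72 h and 5.00, 7.46 and 4.30 CPM in controls. It rose by 1.22 at 48 h (adjusted p = 0.0251) and by 1.35 at 72 h (adjusted p = 0.0129) on the log2 scale, and all treated libraries exceeded all controls. ZFP30 averaged 19 CPM at 48 h, 18.9 CPM at 72 h and 30.1 CPM in controls, and fell at both times (adjusted p = 0.0102 and 0.00714). Of 18 such genes 8 were tested, with 1 higher and 1 lower at 48 h and 2 higher and 1 lower at 72 h, where 14.9% and 16% of all tested genes were higher and lower at 48 h and 20.4% and 19.4% at 72 h. Of 17 ZNF pseudogenes on the chromosome 4 were tested. ZNF788P averaged 10.6 CPM at 48 h, 9.22 CPM at 72 h and 26.8 CPM in controls, with falls by 1.34 (adjusted p = 0.00483) and 1.54 (adjusted p = 0.00184). ZNF887P averaged 0.722 CPM at 48 h, 0.365 CPM at 72 h and 2.25 CPM in controls and also fell at both times, while ZNF137P rose at 72 h by 1.32 (adjusted p = 0.0283). All were chosen after their values were seen.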
